A study of Mus musculus with 12 samples.

Results

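The 44 genes described here encode proteins of the sarcomere, the contractile unit of striated muscle, and were chosen by symbol from a list of contractile genes. All 44 were among the 15113 genes of the count table and among the 12730 with enough reads to test, so 0 members were lost to the filter on low counts. They were sorted by place in the sarcomere into 15 thick filament genes, 15 thin filament genes, 10 genes of the Z-disc and desmin and 4 genes of titin and the M-band. By isoform, 5 are best known from embryonic or neonatal muscle, 9 from slow fibers and 12 from fast fibers, and 18 were not assigned to any of these.

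Cells were C2C12 myotubes, which form when myoblasts of this established mouse line are moved at confluence from medium with fetal bovine serum to medium with horse serum. The myotubes received 20 μM BAM15 in DMSO or the DMSO vehicle alone for 16 h, with 6 libraries in each group and no genetic change in either. BAM15 is a mitochondrial uncoupler, a compound that carries protons across the inner mitochondrial membrane so that respiration runs without ATP synthesis. All 12 libraries come from 1 cell line, and the sources used here do not say whether they came from separate cultures, so p-values measure the spread between these samples, which may be technical. RNA was sequenced from the 3′ end of transcripts (QuantSeq), and a count is the number of reads on a gene, which does not grow with transcript length. Levels are given as normalized counts, reads scaled by the TMM method to the mean library size.

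In a sarcomere, thick filaments of myosin heavy and light chains pull on thin filaments of actin, and calcium binding to troponin moves tropomyosin aside so that myosin can bind. Thin filaments are anchored at the Z-disc, thick filaments are held together at the M-band, and titin links both. Muscle that is forming uses embryonic and neonatal versions of many of these proteins, and maturing fibers take up fast or slow versions in their place.

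Between 13983725 and 18751780 reads were counted per BAM15 library and between 15299135 and 18866728 per vehicle library. The myotube label held in the marker genes. All 9 myotube markers were in the table, with a summed normalized count of 264512 to 314461 in BAM15 and of 233083 to 254848 in vehicle libraries. The difference in this sum came from Acta1, a member, and the 8 other markers summed to 103557 to 121985 and to 113868 to 120977. Without Myh3, a member as well, the 7 that remain summed to 70980 to 77333 in BAM15 and to 79010 to 83025 in vehicle libraries. Among them Myog lay the other way, at 13876 to 20436 after BAM15 and 11793 to 16059 in vehicle. The groups overlapped for Myog, Mymk, Chrna1, Atp2a1 and Ryr1, and BAM15 lay below vehicle for Ckm and Cav3. The 7 markers of myoblasts, the cells that have not fused, summed to 2440 to 3250 after BAM15 and to 5254 to 6291 in vehicle. Without the cell division genes Mki67, Top2a and Cdk1 the 4 others summed to 599.6 to 1637 and to 769 to 1042. Of these, Pax7 was lower, at 102 to 146 after BAM15 and 189 to 265 in vehicle. Myf5 lay the other way, at 188 to 845 after BAM15 and 95.6 to 201 in vehicle. The groups overlapped for Myf5, Id1 and Id3. Of 4 smooth muscle markers 3 were in the table (Myh11 was not), and they summed to 10736 to 12472 against 28876 to 31847. Adipocyte (1 of 3 markers in the table) and osteoblast markers (1 of 3) reached at most 2.91 and 15.5 normalized counts. The dividing-cell and smooth muscle markers were thus lower after BAM15, as was the sum of the 7 myotube markers that are not members. The other myoblast markers overlapped in sum. The part of all these markers in the results on members was not tested. In bulk RNA fewer cells of a type and less RNA per cell cannot be told apart.

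The BAM15 libraries numbered 4 to 6 stood apart from those numbered 1 to 3. In 25 of the 44 members, or 56.8%, all BAM15 libraries 4 to 6 lay below all BAM15 libraries 1 to 3, against 27.7% of all tested genes, and in the vehicle libraries this held for 7 members, or 15.9%, against 7.6%. The median member lay at -0.05, 0.03 and -0.17 on the log2 scale relative to the vehicle mean in BAM15 libraries 1, 2 and 3, and at -0.17, -0.29 and -0.38 in libraries 4, 5 and 6. The sources used here name no batch. Results are therefore also given within libraries 1 to 3 and within libraries 4 to 6 of both groups.

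Contractile genes changed little in size, and few of them rose. At an adjusted p below 0.01, 10 of the 44 members fell after BAM15, namely Myl2, Mybpc2, Xirp1, Ldb3, Tpm3, Myom3, Tnnt2, Mybph, Mylpf and Myl4, and 2 rose, the Z-disc gene Csrp3 and skeletal α-actin, Acta1. The 10 that fell are 22.7% of the members, close to the 20.3% of all tested genes that fell. The 2 that rose are 4.55%, against 22% of all tested genes. The closeness for genes that fell depended on the fit. With DESeq2 17 members fell, against 22.2% of all tested genes, and within libraries 4 to 6 17 fell, against 16.7%. Within libraries 1 to 3, 11 fell, against 22.2%. Members had a median log2 fold change of -0.16, all tested genes one of 0.02, and single members ranged from -0.66 to 0.49. In all, 34 members had a fold change below 0 and 10 above it. The same 12 members were those whose groups did not overlap, with every BAM15 library below every vehicle library for 10 (17% of all tested genes) and above for 2 (17.1% of all tested genes).

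None of the members passed the thresholds of the study's methods, which ask for a difference beyond 2-fold at a base mean over 50 besides an adjusted p below 0.01 and were passed by 7.28% of all tested genes. The count was 0 with edgeR's quasi-likelihood test, DESeq2 and limma-voom. At an adjusted p below 0.05 by the edgeR test, 19 members fell and 3 rose, while 26.1% and 28% of all tested genes did. For 43 of the 44 members the 95% confidence interval of the fold change lay wholly inside 2-fold in either direction. The exception was the fast heavy chain Myh2, with an interval of -1.10 to -0.20 on the log2 scale. The share of all tested genes with an interval inside 2-fold was not computed.

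**Figure D1:**
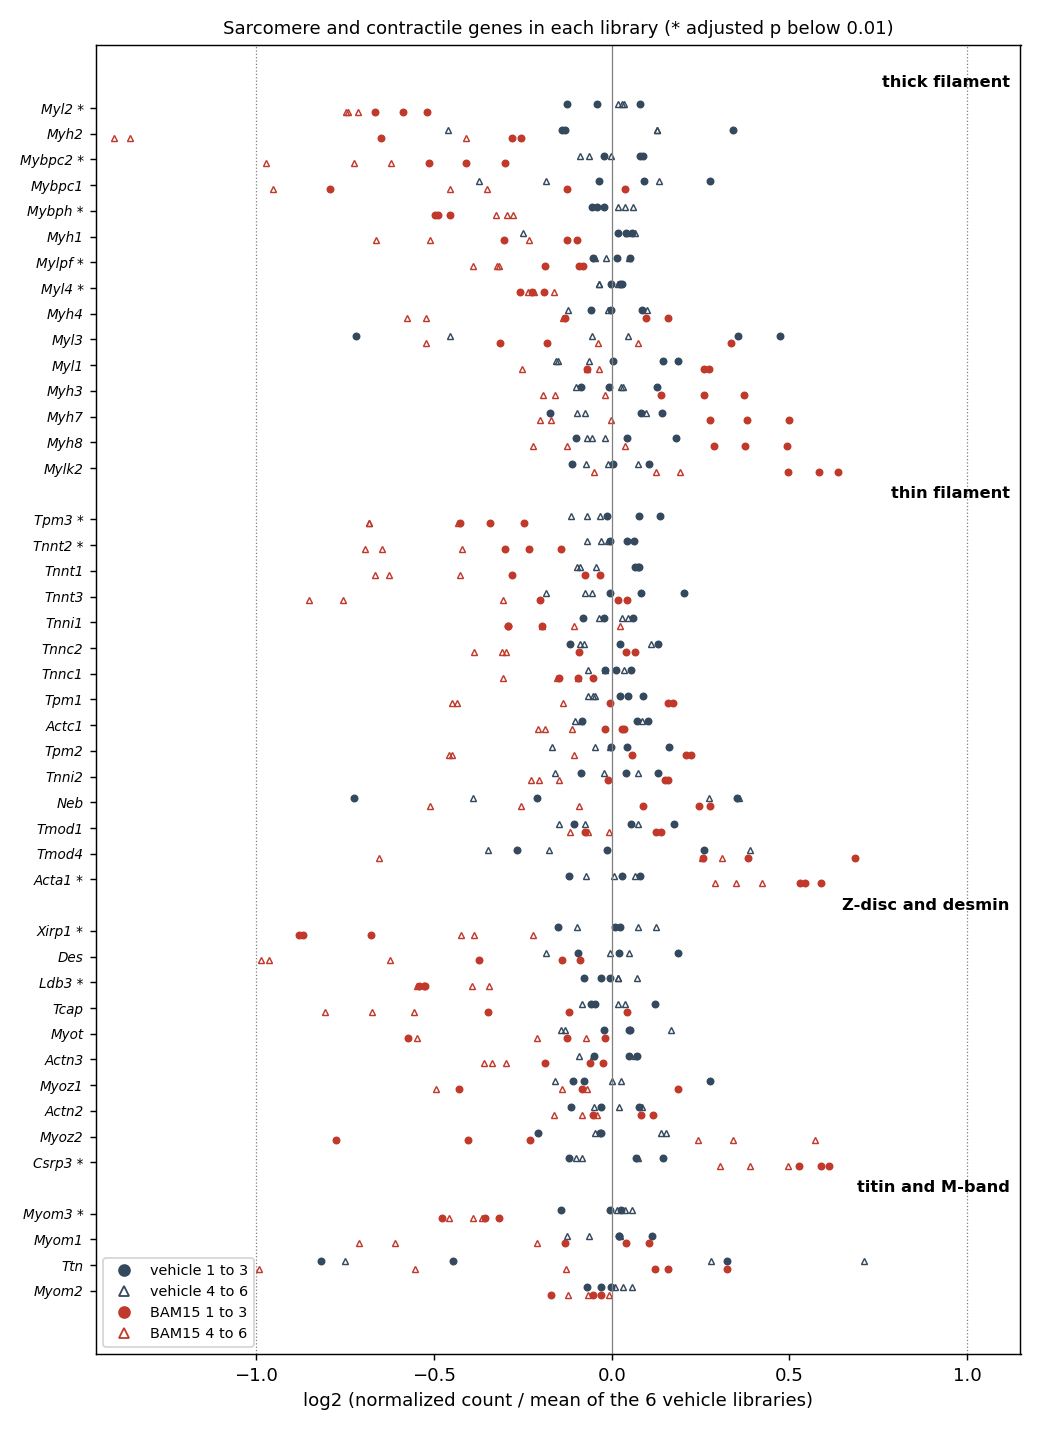
Each point is 1 library, and the horizontal axis is the log2 ratio of a member's normalized count to the mean of the 6 vehicle libraries, with dotted lines at a 2-fold change and an asterisk at members with an adjusted p below 0.01. The BAM15 libraries of Acta1 and Csrp3 lie to the right of all vehicle libraries, those of 10 members lie to the left, and open triangles (BAM15 libraries 4 to 6) lie left of filled red circles (1 to 3) in most rows.

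Of the thick filament genes 5 of 15 fell and 0 rose, with a median log2 fold change of -0.22. For this and the other parts of the sarcomere, the shares of all tested genes were 20.3% lower and 22% higher. The largest fitted decrease among members was that of Myl2, the regulatory light chain of slow and cardiac muscle (ENSMUSG00000013936, chr5:122100951-122113472). Its normalized counts were 866 to 1014 (median 902) in BAM15 libraries and 1332 to 1535 (median 1476) in vehicle libraries. The highest BAM15 library thus lay below the lowest vehicle library, and Myl2 fell by 36.7% (log2 fold change -0.66, SE 0.06, adjusted p = 1.41e-07). The fast fiber counterpart Mylpf (ENSMUSG00000030672, chr7:127208890-127214298) ranged from 86388 to 107046 (median 95100) in BAM15 and from 109105 to 117160 (median 113052) in vehicle libraries. The groups came close without overlapping, and Mylpf fell by 14.5% (log2 fold change -0.23, SE 0.07, adjusted p = 0.00874). This call was lost within libraries 1 to 3, where the log2 fold change was -0.13 (adjusted p = 0.0642), and in 9 of the 12 fits without 1 library, with adjusted p up to 0.0229.

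Among the essential light chains, which stabilize the lever arm of myosin, only the embryonic and atrial Myl4 (ENSMUSG00000061086, chr11:104550663-104595753) passed the test in the comparison of all 12 libraries. Its normalized counts were 29079 to 31069 (median 29841) in BAM15 and 33944 to 35488 (median 35007) in vehicle libraries. Both groups were narrow and did not overlap, and Myl4 fell by 13.8% (log2 fold change -0.22, SE 0.04, adjusted p = 0.000894), a call lost within libraries 4 to 6 (adjusted p = 0.0385). The fast Myl1 and the slow Myl3 had log2 fold changes of 0.03 and -0.09 (adjusted p of 0.81 and 0.743).

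Myosin binding proteins bind along the thick filament and tune the movement of myosin heads. Mybpc2, the fast fiber protein C (ENSMUSG00000038670, chr7:44501699-44524656), had 294 to 469 normalized counts (median 389.6) in BAM15 and 542 to 613 (median 572) in vehicle libraries. All 6 BAM15 libraries were below the vehicle libraries, and the gene fell by 32.8% (log2 fold change -0.57, SE 0.10, adjusted p = 0.000126). Mybph, protein H (ENSMUSG00000042451, chr1:134193448-134201232), ranged from 14325 to 16668 (median 15451) in BAM15 and from 19449 to 21085 (median 20203) in vehicle libraries. Again the groups were apart, and Mybph fell by 23.5% (log2 fold change -0.39, SE 0.06, adjusted p = 3.06e-05). Exons of Adora1 on the opposite strand cover all 516 bases of the annotated 3′ ends of Mybph, and the sources used here do not name the strand of counting, so the reads of both genes may be mixed. The slow Mybpc1 had 356 to 708 normalized counts in BAM15 and 532 to 834 in vehicle libraries, which overlapped (log2 fold change -0.40, adjusted p = 0.0473). Mylk2, the skeletal myosin light chain kinase, had the largest positive change among the uncalled members, with 357 to 575 in BAM15 and 342 to 398 in vehicle libraries (log2 fold change 0.35, adjusted p = 0.013). Its BAM15 libraries 1 to 3 were all above 4 to 6, and the log2 fold change was 0.57 within libraries 1 to 3 and 0.09 within 4 to 6. Mylk2 was called by DESeq2 over all libraries (adjusted p = 0.00625), and by edgeR without BAM15 library 4, 5 or 6 (adjusted p of 0.00927, 0.00819 and 0.00196).

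None of the 6 myosin heavy chain genes passed an adjusted p of 0.01 over all libraries (edgeR), and 2 of them, Myh1 and Myh2, had an unadjusted p below 0.05. The fast fiber genes Myh1, Myh2 and Myh4 had log2 fold changes of -0.31, -0.65 and -0.16, with adjusted p of 0.0118, 0.0174 and 0.256. The embryonic Myh3, the neonatal Myh8 and the slow Myh7 had log2 fold changes of 0.08, 0.16 and 0.16, with adjusted p of 0.483, 0.225 and 0.276. For Myh1, normalized counts were 11308 to 16725 (median 14856) in BAM15 and 15056 to 18739 (median 18401) in vehicle libraries, which overlapped through 1 low vehicle library, number 5. Myh1 passed the threshold without this library (adjusted p = 0.00548) and without BAM15 library 1 or 2 (0.00577 and 0.00598). Over all 12 libraries DESeq2 called both Myh1 and Myh2 as lower (adjusted p of 0.00331 and 0.00278), and limma-voom called Myh1 (0.00988). With the replicate block both were also called (0.00402 and 0.00256), as with scaling by library size only (0.000636 and 0.00552). With the size factors of DESeq2, edgeR called Myh1 as well (0.00856). Myh1 was also called as lower in each set of libraries by edgeR. Its log2 fold change was -0.21 within libraries 1 to 3 (adjusted p = 0.00522) and -0.43 within 4 to 6 (0.00914). Myh2 (adjusted p of 0.0236 and 0.0427) and Myh4 (0.695 and 0.0106) were called in neither set. Within libraries 1 to 3, Myh3, Myh7 and Myh8 passed the test as higher after BAM15 (log2 fold changes of 0.24, 0.36 and 0.34). Within libraries 4 to 6 the same 3 genes had values of -0.12, -0.11 and -0.06 with no call. The difference between these sets of libraries was not tested.

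Shares within the heavy chain family take out what all 6 genes have in common in a library. They are given as percent of the reads of the 6 genes, with no test. Because they add up to the whole, a lower share of 1 gene raises the sum of the other shares. The Myh3 share was 51.8% to 54.4% (median 53.4%) in BAM15 and 48.6% to 50.9% (median 50.2%) in vehicle libraries, so every BAM15 library was above every vehicle library. The normalized counts of Myh3 overlapped, at 32577 to 48250 in BAM15 and 34730 to 40699 in vehicle libraries. The Myh1 share ran from 18.2% to 21.4% (median 19.3%) against 22.0% to 25.8% (median 24.3%), with every BAM15 library below. Fast Myh4 and Myh2 showed the same order of groups. The Myh4 share was 6.18% to 7.06% (median 6.68%) in BAM15 and 7.08% to 7.79% (median 7.34%) in vehicle libraries. The Myh2 share was 0.304% to 0.522% (median 0.433%) in BAM15 and 0.524% to 0.865% (median 0.656%) in vehicle libraries. All 3 fast shares were thus lower in every BAM15 library, including libraries 1 to 3 and 4 to 6 alike, although the lowest vehicle library came near the highest BAM15 library for Myh4 and Myh2. The Myh8 share of 15.4% to 17.4% against 13.9% to 15.9% and the Myh7 share of 3.32% to 3.71% against 2.90% to 3.35% overlapped.

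Reads of the heavy chains cannot be parted fully. Of windows of 50 bases in the annotated 3′ ends, 16.7% of those of Myh1, 20.3% of Myh2 and 8.67% of Myh4 also occur in another of the fast or neonatal genes, and 29.9% of those of Myh7 occur in Myh6. Opposite-strand exons cover 238 of 480 bases of the Myh1 ends (Myhas), 237 of 403 of Myh2 (9430073C21Rik) and 129 of 483 of Myh7 (Mhrt). Among the other members, windows were shared by Myh8 (0.855%), by Myl1 with Mylf-ps (23.4%) and by Tpm3 with Tpm3-rs7 (22.5%), and values of these 7 genes are uncertain to that extent. Outside the heavy chains and Mybph, opposite-strand exons cover 371 of 400 bases of the Tnnc2 end (Ube2c), 400 of 400 of Tmod1 (Tstd2), 220 of 400 of Des (Gm15179), 122 of 400 of Mybpc2 (Gm44646) and 60 of 981 of Myl2 (Ccdc63).

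**Figure D2:**
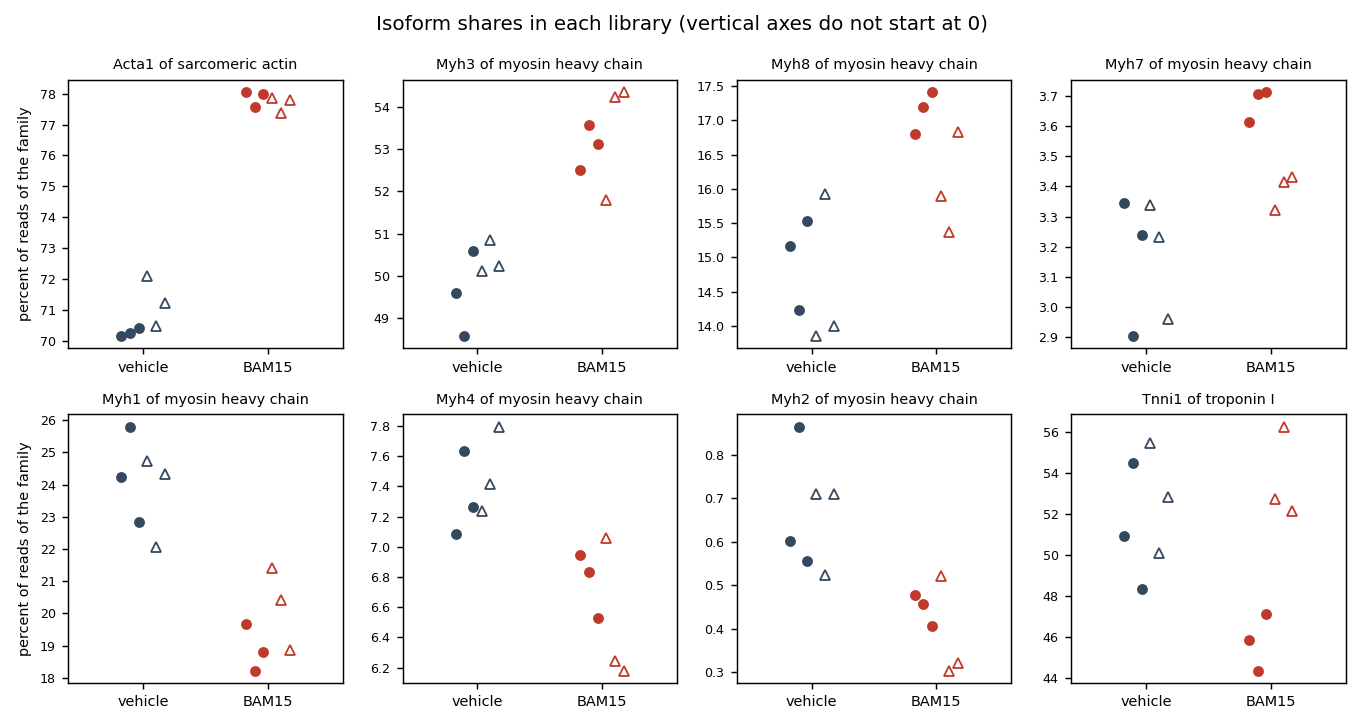
Each point is 1 library (filled circles 1 to 3, open triangles 4 to 6), and the vertical axis is the percent of reads of the family that fall on the named gene, on axes that do not start at 0. The Acta1 share of Acta1 and Actc1 reads and the Myh3 share are above, and the Myh1, Myh4 and Myh2 shares below, all vehicle libraries, while the Myh8, Myh7 and Tnni1 shares overlap.

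Thin filament genes numbered 2 that fell and 1 that rose of 15, with a median log2 fold change of -0.09. Acta1 encodes skeletal α-actin, the actin of adult skeletal thin filaments (ENSMUSG00000031972, chr8:123891769-123894751), and was one of the members that rose. Its normalized counts were 156460 to 192475 (median 177987) in BAM15 and 117809 to 135139 (median 129566) in vehicle libraries. The lowest BAM15 library exceeded the highest vehicle library, and Acta1 was 1.37-fold higher (log2 fold change 0.46, SE 0.07, adjusted p = 3.96e-05). The log2 fold change was 0.55 within libraries 1 to 3 and 0.34 within 4 to 6. Acta1 alone took 0.945% to 1.06% of all reads on genes after BAM15 and 0.704% to 0.823% in vehicle.

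Cardiac α-actin, Actc1, is the sarcomeric actin that skeletal muscle uses while it forms. Its normalized counts of 45792 to 54119 (median 50542) in BAM15 and 49210 to 56768 (median 52691) in vehicle libraries overlapped, and the change did not pass the test (log2 fold change -0.07, 95% interval within 2-fold, adjusted p = 0.363). Of the reads of both sarcomeric actins, Acta1 held 77.4% to 78.1% (median 77.8%) in BAM15 and 70.2% to 72.1% (median 70.5%) in vehicle libraries. This share showed a wide gap between the groups and a spread of less than 1 percentage point among the BAM15 libraries, with libraries 1 to 3 and 4 to 6 close together.

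Among the troponins, 1 of 7 passed the test and all 7 had a log2 fold change below 0, while all tested genes had a median of 0.02. Tnni2 was above 0 within libraries 1 to 3 (0.067). Tnnt2, the troponin T of cardiac and embryonic skeletal muscle (ENSMUSG00000026414, chr1:135836354-135852260), had 33422 to 48987 normalized counts (median 42154) in BAM15 and 51546 to 56483 (median 53815) in vehicle libraries. The BAM15 libraries spread widely below a narrow vehicle group, and Tnnt2 fell by 23.8% (log2 fold change -0.39, SE 0.09, adjusted p = 0.00162). The slow and fast troponin T genes had similar fitted sizes without passing over all libraries. Tnnt1 had -0.33 on the log2 scale (adjusted p = 0.0142) and Tnnt3 -0.30 (adjusted p = 0.0914). Tnnt1 was called over all libraries by DESeq2 (0.00489) and limma-voom (0.00981) and passed the edgeR threshold without BAM15 library 1 or 2 (adjusted p of 0.00551 and 0.00277), and the slow inhibitory subunit Tnni1 without BAM15 library 5 (0.00369). Over all libraries Tnni1 and the slow calcium sensor Tnnc1 had log2 fold changes of -0.17 and -0.14 (edgeR adjusted p of 0.0271 and 0.0408), and the fast Tnni2 and Tnnc2 of -0.04 and -0.15 (adjusted p of 0.714 and 0.154). Tnnc1 was called over all libraries by DESeq2 (adjusted p = 0.00534). Within libraries 4 to 6 edgeR called Tnnt1 (-0.50, adjusted p = 0.000213), Tnnt3 (-0.52, 0.00512) and Tnnc2 (-0.33, 0.00528), none of which was called within 1 to 3. Tnni1 was called within libraries 1 to 3 (-0.25, 0.00101) and not within 4 to 6 (-0.11, 0.26). The Tnni1 share of troponin I reads was 44.4% to 56.3% (median 49.6%) in BAM15 and 48.3% to 55.5% (median 51.9%) in vehicle libraries. The BAM15 libraries were split in this share, with numbers 1 to 3 all below numbers 4 to 6.

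Tropomyosin runs along the actin filament and blocks the myosin sites at rest. Tpm3, which encodes the slow muscle form and cytoplasmic forms that gene counts do not part (ENSMUSG00000027940, chr3:90072649-90100902), had 5069 to 6860 normalized counts (median 6036) in BAM15 and 7522 to 8947 (median 8010) in vehicle libraries. The groups did not overlap, and Tpm3 fell by 27.3% (log2 fold change -0.46, SE 0.08, adjusted p = 0.000154). Tpm1 and Tpm2 had log2 fold changes of -0.09 and -0.06 (adjusted p of 0.473 and 0.687). Nebulin, the long ruler of the thin filament, was among the most variable members, with Neb at 22140 to 38229 in BAM15 and 19091 to 40478 in vehicle libraries (adjusted p = 0.958). The cappers of the thin filament end did not pass either, Tmod1 at 0.0031 on the log2 scale (adjusted p = 0.974) and Tmod4, counted at only 17.5 to 44.3, with 0.26 (adjusted p = 0.3).

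In the Z-disc and desmin group 2 of 10 genes fell and 1 rose, with a median log2 fold change of -0.22. Csrp3, a LIM protein of the Z-disc also known as muscle LIM protein (ENSMUSG00000030470, chr7:48830398-48848033), had 2398 to 2964 normalized counts (median 2765) in BAM15 and 1785 to 2143 (median 1933) in vehicle libraries. All 6 BAM15 libraries were above the vehicle libraries, and Csrp3 was 1.40-fold higher (log2 fold change 0.49, SE 0.07, adjusted p = 1.96e-05), with 0.54 within libraries 1 to 3 and 0.42 within 4 to 6. Ldb3, a PDZ and LIM protein that binds α-actinin (ENSMUSG00000021798, chr14:34526603-34588682), ranged from 2596 to 2991 (median 2634) in BAM15 and from 3596 to 3989 (median 3812) in vehicle libraries. The gap between the groups was wider than either group, and Ldb3 fell by 28.2% (log2 fold change -0.48, SE 0.05, adjusted p = 1.74e-06), with -0.50 within libraries 1 to 3 and -0.47 within 4 to 6.

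Xirp1, or Xin, binds actin near the Z-disc and at sites of attachment or repair (ENSMUSG00000079243, chr9:120013755-120023598). It had 501 to 790 normalized counts (median 632) in BAM15 and 829 to 1004 (median 931) in vehicle libraries. The groups did not overlap, and Xirp1 fell by 31.9% (log2 fold change -0.55, SE 0.11, adjusted p = 0.000467). Here the larger decrease was in libraries 1 to 3 (-0.77, against -0.39 in 4 to 6), the opposite order to most members. Desmin, the intermediate filament that ties Z-discs together, and telethonin, which caps titin at the Z-disc, had fitted decreases that missed the threshold with edgeR. DESeq2 called both over all 12 libraries (adjusted p of 0.0026 for Des and 0.00619 for Tcap), and limma-voom called Des (0.00897). Des had 23653 to 44053 normalized counts in BAM15 and 41221 to 53312 in vehicle libraries (log2 fold change -0.49, adjusted p = 0.013). Tcap had 1714 to 3089 in BAM15 and 2829 to 3259 in vehicle libraries (log2 fold change -0.38, adjusted p = 0.0169). Both differed between the sets of BAM15 libraries, with log2 fold changes of -0.24 and -0.15 within libraries 1 to 3 and of -0.82 and -0.68 within 4 to 6. Both were called within libraries 4 to 6 (edgeR adjusted p of 3.58e-05 and 2.5e-05) and not within 1 to 3 (0.0221 and 0.178). Without BAM15 library 1 or 2 both passed the threshold (Des with adjusted p of 0.00346 and 0.00511, Tcap with 0.00888 and 0.00102), as did the fast α-actinin Actn3 (0.00954 and 0.00494). Over all libraries the α-actinins Actn3 and Actn2 had log2 fold changes of -0.20 and -0.02 (edgeR adjusted p of 0.0175 and 0.792), and Myot, Myoz1 and Myoz2 had adjusted p of 0.0777, 0.336 and 0.905. Actn3 was called over all libraries by DESeq2 (adjusted p = 0.0073). By edgeR it was called within libraries 4 to 6 (0.0042) and not within 1 to 3 (0.104). Myoz2 had opposite signs in the sets of libraries, -0.37 within 1 to 3 and 0.30 within 4 to 6.

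Of titin and the M-band genes 1 of 4 fell. Myom3, a myomesin that links thick filaments at the M-band (ENSMUSG00000037139, chr4:135759715-135815564), had 3100 to 3467 normalized counts (median 3322) in BAM15 and 3911 to 4497 (median 4383) in vehicle libraries. The groups did not overlap, and Myom3 fell by 23.9% (log2 fold change -0.39, SE 0.05, adjusted p = 9.44e-06), with -0.35 and -0.45 within the sets of libraries. The related Myom1 and Myom2 had log2 fold changes of -0.22 and -0.07 over all libraries (adjusted p of 0.146 and 0.201). Myom1 was called within libraries 4 to 6 (-0.45, edgeR adjusted p = 0.00688) and not within 1 to 3 (-0.05, 0.551). Ttn was the most variable member of this group, with a coefficient of variation of 43.3% among vehicle and 30.9% among BAM15 libraries, and its 16090 to 40101 normalized counts in BAM15 and 18178 to 52379 in vehicle libraries overlapped (adjusted p = 0.778).

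**Figure D3:**
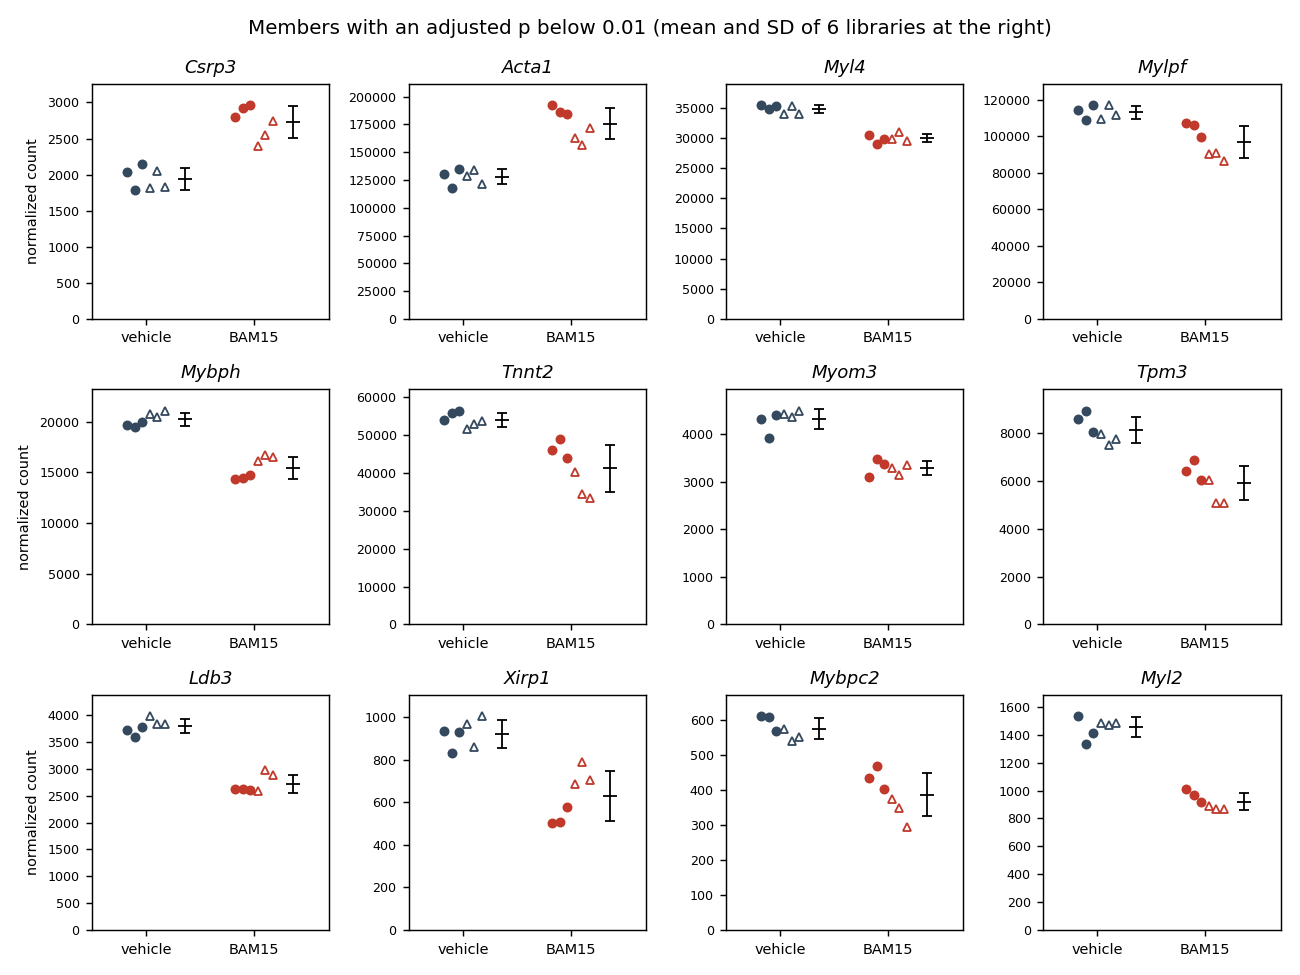
Normalized counts per library, on axes that start at 0, of the 12 members with an adjusted p below 0.01, with filled circles for libraries 1 to 3, open triangles for 4 to 6, and the mean with its SD beside each group of 6. Csrp3 and Acta1 lie above and the other 10 below the vehicle libraries, and in Mylpf, Tnnt2, Tpm3 and Mybpc2 the BAM15 libraries 4 to 6 lie at or below the level of 1 to 3.

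By isoform type, 2 of 12 fast, 2 of 9 slow and 2 of 5 embryonic genes fell and 0 rose in each. Of the 18 genes without a type, 4 fell and 2 rose. In the same fit 20.3% of all tested genes fell and 22% rose. The median log2 fold changes were -0.18 for fast, -0.17 for slow, -0.07 for embryonic and -0.09 for unassigned genes. The types were not tested against each other. Within libraries 1 to 3, 11 members fell and 6 rose (Acta1, Csrp3, Mylk2, Myh3, Myh7 and Myh8), with a median of -0.12, while 22.2% of all genes tested in these libraries fell and 22.2% rose. Within libraries 4 to 6, 17 fell and 2 rose, with a median of -0.30, while 16.7% of all genes tested in these libraries fell and 16.5% rose. The 44 members together held 4.98% to 5.98% (median 5.43%) of all reads in BAM15 and 5.79% to 6.41% (median 6.01%) in vehicle libraries, which overlapped.

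**Figure D4:**
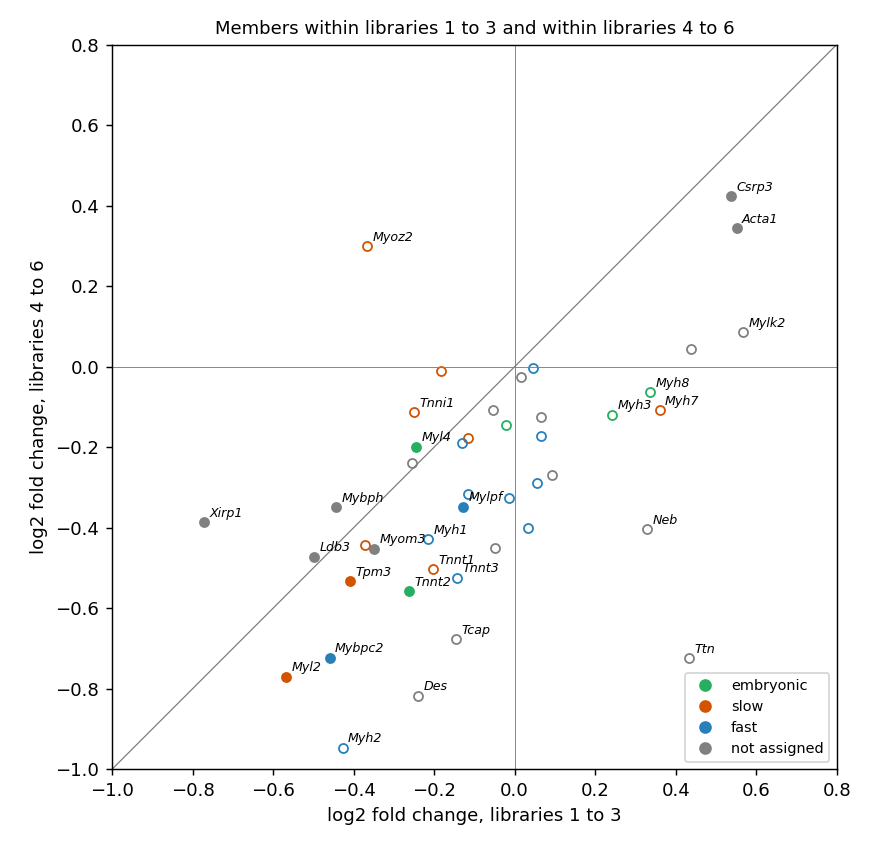
Each point is a member, with its log2 fold change within libraries 1 to 3 on the horizontal axis and within libraries 4 to 6 on the vertical axis, colored by isoform type and filled where the adjusted p over all libraries was below 0.01. Csrp3 (0.54 and 0.42) and Acta1 (0.55 and 0.34) are at the upper right, most points lie below the line of equal values, and Myh3, Myh7 and Myh8 lie right of and below 0.

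Upstream sequences of 34 of the 44 members were found in RefSeq (GRCm38.p6), with 41 starts in all. The 250 bases before each start were searched on both strands for the CArG box (bound by serum response factor), the MEF2 site, an E-box with the letters CAGCTG, the MCAT element with the letters CATTCC and the TATA box with the letters TATAAA. The CArG box occurred in 17.1% of member promoters and 1.47% of all 32851 promoters, and the MEF2 site in 14.6% and 2.92%. The E-box occurred in 34.1% and 13%, the MCAT letters in 29.3% and 12.6%, and the TATA letters in 22% and 12.4%. None of these motifs was allowed a mismatch, and a promoter was counted once per motif. A match of letters is a description and not a site in use. Sequences are shown for Acta1, which rose, and for Mybph and Myom3, which fell, each with 1 RefSeq start, to set the sequence before genes of opposite direction side by side. They run 5′ to 3′ and end at the base before the start, and capitals mark the matches. The Acta1 sequence is chr8:123894776-123895025 on the minus strand, with the E-box, the CArG box, the MCAT letters and the TATA letters in this order. The Mybph sequence is chr1:134193198-134193447 on the plus strand, with the E-box, the MCAT letters on the other strand directly after it, and the TATA letters on the other strand. The Myom3 sequence is chr4:135759465-135759714 on the plus strand, with 1 MEF2 site.
Acta1: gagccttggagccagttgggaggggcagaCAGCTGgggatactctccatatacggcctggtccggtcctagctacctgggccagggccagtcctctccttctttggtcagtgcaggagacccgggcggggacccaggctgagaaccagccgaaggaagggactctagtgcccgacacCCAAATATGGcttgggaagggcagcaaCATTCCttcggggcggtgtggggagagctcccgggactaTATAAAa
Mybph: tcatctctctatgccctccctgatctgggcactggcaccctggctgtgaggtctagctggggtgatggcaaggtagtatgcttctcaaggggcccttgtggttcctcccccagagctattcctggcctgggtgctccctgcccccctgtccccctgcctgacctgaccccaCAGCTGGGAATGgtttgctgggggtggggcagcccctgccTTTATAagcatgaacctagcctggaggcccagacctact
Myom3: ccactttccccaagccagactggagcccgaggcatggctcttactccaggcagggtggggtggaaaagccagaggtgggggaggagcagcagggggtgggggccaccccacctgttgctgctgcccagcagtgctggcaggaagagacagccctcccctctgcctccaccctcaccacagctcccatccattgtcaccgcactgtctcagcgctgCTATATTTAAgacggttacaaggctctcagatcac
E-box, MCAT and TATA letters are thus found before both Acta1 and Mybph, which moved in opposite directions, and the CArG box before Acta1 only. These genes were picked with their changes known, and whether motifs go with direction was not tested. Among the 13 promoters of members that fell, 5 held the E-box, 3 the MCAT letters, 2 the TATA letters, 2 the CArG box and 1 the MEF2 site. Of the 3 promoters of members that rose, 1 held the E-box, 1 the MCAT letters, 1 the TATA letters, 1 the CArG box and 0 the MEF2 site.

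Other genes of the sarcomere and Z-disc, from a list that leaves out the 44 members, showed a similar balance. Of 32 tested, 9 fell and 3 rose, with a median log2 fold change of -0.19, while 20.3% of all tested genes fell and 22% rose. The largest decreases were in Synpo2l (-1.08), the thin filament nucleator Lmod3 (-0.77) and Synpo2 (-0.73), and the increases in the actin-binding Xirp2 (0.97), the stretch-responsive Ankrd2 (0.69) and the ubiquitin ligase Trim63 (0.50). Xirp2 and the member Xirp1, the other gene of the Xin family, thus moved in opposite directions. Xirp2 had 885 to 1452 normalized counts in BAM15 and 459 to 750 in vehicle libraries, and the groups did not overlap (adjusted p = 2.73e-05).

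A list of chaperones and modifiers of sarcomere assembly, which also holds the calcium channel adaptor Stac3, moved in both directions. Of 11 genes 3 were lower and 3 higher, with a median of -0.09. The shares of all tested genes were 20.3% lower and 22% higher. The myosin chaperone Unc45b (-0.48), the methyltransferase Smyd1 (-0.42) and the calcium channel adaptor Stac3 (-0.38) fell. Hsp90aa1 (0.96), which works with Unc45b in folding myosin, and the chaperones Bag3 (0.84) and Hspb8 (0.30) rose. The calls of Hspb8 and Stac3 were the less stable ones. Hspb8 lost its call within libraries 4 to 6 (log2 fold change 0.15, adjusted p = 0.23), with scaling by library size only (0.0186) and in 8 of 12 fits without 1 library, and Stac3 in 8 of 12 such fits (adjusted p up to 0.0218).

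The actomyosin genes of non-muscle and smooth muscle cells changed further than the sarcomeric members. Of 23 tested, 15 fell and 0 rose, with a median log2 fold change of -0.57, and 7 passed the study's thresholds. Of all tested genes 20.3% fell, 22% rose and 7.28% passed these thresholds. Tagln (-1.96), Actg2 (-1.63) and Tpm4 (-1.50) fell most. Acta2, smooth muscle α-actin, had 10296 to 12317 normalized counts (median 11136) in BAM15 and 27788 to 30626 (median 29887) in vehicle libraries. These ranges are far apart, and the log2 fold change was -1.39 (SE 0.06, adjusted p = 3.51e-11), while that of the sarcomeric member Acta1 was 0.46. Cytoplasmic β-actin, Actb, fell as well (-1.01, adjusted p = 7.57e-07). Myh9, the non-muscle heavy chain, did not pass (log2 fold change -0.06, adjusted p = 0.65).

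Genes of myotube differentiation had 10 of 19 lower and 1 higher, with a median of -0.27, while 20.3% of all tested genes fell and 22% rose. Myod1 (-1.03), Mef2c (-0.78) and Cav3 (-0.61) fell most, Ckm, muscle creatine kinase, fell by 0.17 on the log2 scale (adjusted p = 0.0054), and Myog, the transcription factor of terminal differentiation, rose (0.37, adjusted p = 0.00361). The call of Myog was lost within libraries 1 to 3 (adjusted p = 0.0432), with scaling by library size only (0.0145) and without BAM15 library 4 (0.0106), vehicle library 3 (0.0105) or vehicle library 5 (0.0103). The call of Ckm was lost in 7 of 20 refits, 4 of them without 1 library, with adjusted p up to 0.0523. Genes of undifferentiated and dividing myoblasts had 10 of 18 lower and 2 higher, with a median of -0.71. Heyl (-3.07), Mki67 (-1.80) and Top2a (-1.46) fell most, and Myf5 (1.69) and Hmga2 (1.33) rose. None of these lists was tested as a set or against the members.

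**Figure D5:**
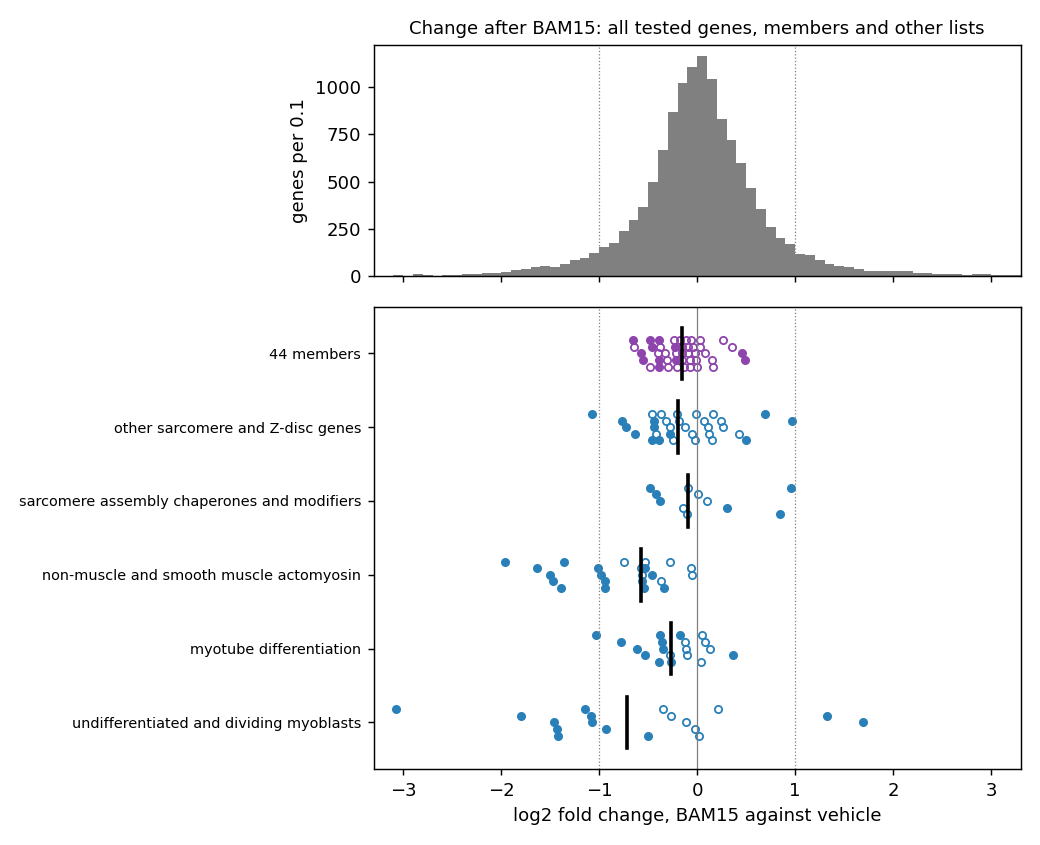
The upper panel counts all tested genes by log2 fold change in bins of 0.1, and the lower panel shows each gene of the members and of 5 other lists, filled where the adjusted p was below 0.01, with a black bar at the median. The members lie between the dotted lines of a 2-fold change with a median of -0.16, and the non-muscle and smooth muscle genes lie further left with a median of -0.57.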

How the data were processed

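RNA of C2C12 myotubes was sequenced from 6 BAM15 and 6 vehicle libraries. The authors made QuantSeq 3′ libraries and deposited raw counts, whole numbers of reads on each Ensembl gene. The build is GRCm38 (mm10) per the labels, and the strand of counting is not given in the sources used here. The authors also deposited a signal table made with DESeq2 1.22.2, in which each library equals its counts over a single size factor (0.836 to 1.07), and which was not used further. Both tables hold 11 columns of other samples, which were not used.

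Counts were analysed in R 4.3.3 with edgeR 4.0.16 (filterByExpr, TMM factors of 0.932 to 1.04, robust quasi-likelihood test with the condition as its only term). P-values were adjusted over 12730 genes by the Benjamini-Hochberg method. The SE is the size of the log2 fold change divided by the square root of F. Every member is named, with values for those past an adjusted p of 0.01. Of the other lists, up to 3 increases and 3 decreases past it are named, with Myog, Ckm, Myh9 and Acta2. Actb and Xirp2's counts were added after values were seen. Members and lists were chosen with earlier results of these data known. Shares are percent of counts and are given with their range over libraries. Their counting error was not estimated and may exceed the smallest gaps between libraries, as for Myh2 and Myh4. No 2 libraries were copies, with a chi-square per gene of at least 4.72 in every pair of a group.

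Alternatives were DESeq2 1.42.0, limma-voom (limma 3.58.1), other scalings, no filter, a replicate block, libraries 1 to 3 or 4 to 6 only, each library left out, and an adjusted p of 0.05. The test was checked on simulated data. Windows of 50 bases in the last 400 bases of GENCODE M21 transcripts were compared for shared sequence. Promoters are from RefSeq. Python 3.11.15 and matplotlib 3.10.9 made the plots.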

Additional observations from a re-analysis of the deposited data

Results flagged for a closer look

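In 2 of 104 sets of 6 libraries, 1 library stood far from the others by Dixon's test, where chance flags about 5% of sets. Vehicle library 5 had 15056 normalized counts of Myh1, while the other vehicle libraries had 18109 to 18739. Vehicle library 2 had 3911 normalized counts of Myom3, while the others had 4308 to 4497. Without the library in question both genes kept a fold change below 0, and Myh1 then passed the threshold (edgeR adjusted p = 0.00548).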

How the results depend on the processing

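Of 12 called members, 10 kept direction and call under all 20 refits, and the exceptions were Mylpf (lost with the replicate block, within libraries 1 to 3 and in 9 of the 12 fits without 1 library, with adjusted p up to 0.0229 in the latter) and Myl4 (lost within libraries 4 to 6). The number of members that fell was 17 with DESeq2, 17 with scaling by library size only, 17 within libraries 4 to 6 and 19 at an adjusted p of 0.05, where 22.2%, 24.1%, 16.7% and 26.1% of all tested genes fell, and the number that rose was 6 within libraries 1 to 3 (22.2% of all). Of the other sarcomere and Z-disc genes 6 rose within libraries 1 to 3 and 3 to 5 without 1 library (5 without BAM15 replicate 2), and of the myotube differentiation genes 0 rose with library size only and 0 to 1 without 1 library (0 without BAM15 replicate 4, vehicle replicate 3 or vehicle replicate 5). Directions turned only in 14 uncalled members, with no call at 0.01 after the turn. Within libraries 1 to 3 these were Myh4 (0.034), Tnni2 (0.067), Tpm1 (0.055), Tpm2 (0.093), Ttn (0.43), Neb (0.33), Actn2 (0.067) and Myoz2 (-0.37), and within libraries 4 to 6 Myh3 (-0.12), Myh7 (-0.11), Myh8 (-0.063), Myl1 (-0.0039) and Tmod1 (-0.027). Scaling by library size only turned Myl1 (-0.037), Myoz2 (-0.014) and Tmod1 (-0.061), limma-voom turned Neb (0.016) and Myoz2 (-0.037), and Tmod1 was also turned by DESeq2 (-0.00058), its size factors (-0.00058) and no filter on low counts (-0.0031). Without 1 library the log2 fold change ranged from -0.024 to 0.081 for Myl1, from -0.20 to 0.023 for Myl3, from -0.12 to 0.0075 for Tpm2, from -0.24 to 0.083 for Ttn, from -0.13 to 0.067 for Neb, from -0.048 to 0.0070 for Actn2, from -0.11 to 0.15 for Myoz2 and from -0.028 to 0.038 for Tmod1. Same-numbered libraries did not deviate together in every pair (correlations of -0.07 to 0.29). These values cannot show whether the numbers 1 to 6 pair the libraries, and the main test assumed no pairing. With the replicate block 15 members fell and 2 rose (20.2% and 21.4% of all tested genes), Neb had 0.011 and Myoz2 -0.034. The cause of these changes was not tested. Members with few reads, such as Tmod4 and Myl3, have wide intervals.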
